A study of Mus musculus with 3 samples.

Results

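Macrophage and myeloid genes were followed across 3 expression arrays of soft tissue sarcoma cells from EWS/ATF1-inducible mice. EWS/ATF1 is the fusion transcription factor of human clear cell sarcoma. The genes followed are 39, chosen by symbol from those known to be expressed in macrophages and related white blood cells. Earlier results of these arrays, in which such genes were bright on the array labelled control, were known when they were chosen. All 39 were measured, each by 1 probe set with a single gene symbol, out of 19938 genes measured in that way. The series has 1 array per group. The array labelled high doxycycline holds RNA of cultured tumor cells taken 24 h after exposure to 0.2 microg/ml doxycycline. The array labelled tumor holds RNA of a resected tumor whose host mouse had received doxycycline for 3 months. The array labelled control holds RNA of cultured cells at 0 microg/ml doxycycline, also at 24 h. All 3 groups share the inducible transgene and a mixed C57/BL6, 129 and ICR background, and all are labelled as tumor cells. The descriptions carry the number 1297 on the arrays labelled high doxycycline and control and 1281 on the array labelled tumor. The promoter that drives the transgene, the number of clones in the cultures and any pooling of animals were not stated in the labels.

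Macrophages are phagocytes that settle in almost every tissue and are common in solid tumors, while a culture of tumor cells passaged for long usually loses them. Their development depends on the receptor for colony stimulating factor 1 and on the transcription factor PU.1. They take up particles through scavenger, lectin and Fc receptors, sense microbes through Toll-like receptors, kill with an oxidase and lysozyme, and secrete complement C1q. By their labels, the array from a tumor would be the first place to look for their RNA, before the arrays from cultured cells.

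Most of the genes were brightest on the array labelled control, a culture, and not on the array labelled tumor. Of the 39 genes, 12 lay above the 95th percentile of olfactory receptor probe sets on the high doxycycline array, 11 on the tumor array and 35 on the control array, as labelled. Olfactory receptor genes, which such tissues are not known to use, served here as a measure of how bright a probe set can be without its RNA, and their 95th percentile was an intensity of 127.9 on high doxycycline, 123.7 on tumor and 147.6 on control over 1035 probe sets. Of all 19938 genes, 70.5%, 70.1% and 69.7% lay above it on these arrays. Because probe sets differ in how brightly they bind, a value under this level does not show that a transcript is absent. Above the median of all probe sets, which was an intensity of 250.02 on control, lay 3 of the 39 genes on high doxycycline, 2 on tumor and 32 on control, beside 55.1%, 55.1% and 55.2% of all genes. The 7 that were not bright on control by this measure were Msr1, Marco, Clec4n, Clec7a, Tlr4, Tlr7 and Aif1. Just above the median on control was Fcgr1 with 252.7, and just below it was Clec4n with 200.6. Whether the labels or columns of the control and tumor arrays were exchanged was not tested. All directions below are therefore between arrays named by their labels, with no replicate behind them and no test, and they are not statements about treated cells, untreated cells or tumors. In a tissue or a culture, fewer macrophages, less RNA per macrophage and a different share of other cells that express such genes cannot be told apart.

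The array labelled high doxycycline was at least 2-fold dimmer than the array labelled control for 31 of the 39 genes, beside 5.55% of all genes. Folds and differences were taken between log2 values of intensity + 1. No member was brighter by that margin, beside 10.6% of all genes. For the array labelled tumor this held for 33 of the 39, beside 6.82% of all genes, and again none was brighter, beside 11.3%. Differences of at least 8-fold were reached by 16 members on high doxycycline, beside 0.767% of all genes, and by 18 on tumor, beside 0.878%. These counts describe how the genes were chosen as much as what the arrays hold, since brightness on control entered the choice. The median log2 difference of the 39 was -2.95 for high doxycycline minus control and -2.98 for tumor minus control, where the median of all genes was 0.0 and -0.004. A shift of the arrays to a common median would raise all differences in these comparisons by 0.14 and 0.19. Both comparisons use the same control array. The array order was control brightest, high doxycycline next and tumor dimmest for 32 of the 39 genes. The share of all genes with this order was not counted. The step from high doxycycline to tumor was mostly small (median log2 difference -0.14), and for 5 members its sign changed under another scaling of the arrays.

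**Figure D1:**
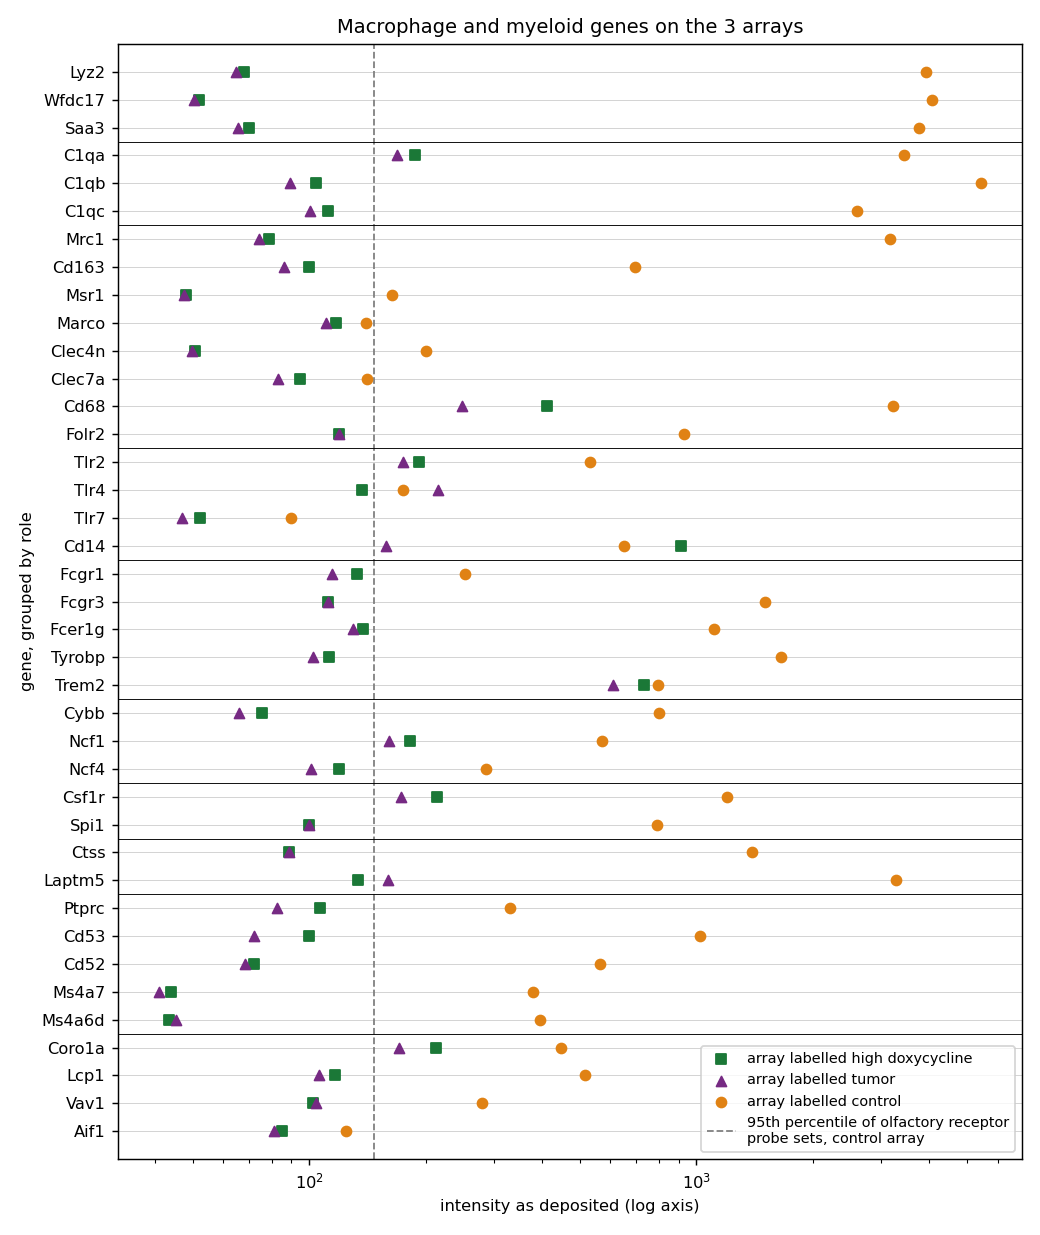
Intensity as deposited (log axis) of each of the 39 genes on the arrays labelled high doxycycline (squares), tumor (triangles) and control (circles), 1 array each, with genes grouped by role and the olfactory receptor 95th percentile of the control array (147.6) as a dashed line. Circles lie to the right of both other symbols for all genes but Tlr4 and Cd14, and Trem2 has its 3 symbols close together.

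The genes that define the lineage were among the dimmer ones. Spi1 encodes PU.1, the ETS factor that directs the myeloid lineage, and had intensities of 100.2 on high doxycycline, 99.9 on tumor and 792.7 on control. That was 7.84-fold and 7.86-fold below control on the 2 arrays. Csf1r, the receptor that macrophages need for survival, had 213.9 on high doxycycline and 173.0 on tumor, against 1201 on control (5.60-fold and 6.91-fold dimmer). For both genes only the array labelled control was bright. Csf1r stayed above the olfactory receptor level on the 2 other arrays, and Spi1 did not.

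PU.1 binds short purine-rich sites around GGAA, so the stretch of 250 bases before the start of each gene was searched for AGGAAGT and GAGGAAG on both strands, in RefSeq promoters of build GRCm38.p6. The 2 motifs share 6 letters and can overlap. Promoters were at hand for 27 of the 39 genes. AGGAAGT stood before 8 of the 27 genes (29.6%), against 8.8% of 27025 genes with a promoter in the table. GAGGAAG stood before 9 of the 27 (33.3%), against 12% of those genes. One or the other was found for 13 of the 27 (48.1%), against 17.2%, and over all 32851 promoters the share was 15.4%. As a contrast, TTGCNNAA, a core that C/EBP factors bind, stood before 3 of the 27 (11.1%), against 10.8%. Of the 13, Trem2 and Marco differed from control by less than 2-fold on both other arrays and Fcgr1 did so on high doxycycline. A match is a run of letters and is not evidence of binding. The members were chosen as macrophage genes and the motifs after the values were seen, so these shares only describe the choice. Whether PU.1 had a part in the differences between the arrays was not tested. The sequences shown are those of Lyz2, C1qb, C1qc and Mrc1, which hold a match and are among the genes with the largest differences from control, of Cybb, which is dimmer without a match to these 2 motifs in this window, and of Trem2, which has a match and was nearly as bright on all 3 arrays. The Cybb sequence does hold GGAA outside these motifs. They run 5′ to 3′ along the gene's own strand and end at the base before its start, with matches to either motif in capitals. All of the matches shown lie on the strand opposite the gene, so that they read ACTTCCT or CTTCCTC.
Lyz2 (chr10:117282273-117282522, minus strand): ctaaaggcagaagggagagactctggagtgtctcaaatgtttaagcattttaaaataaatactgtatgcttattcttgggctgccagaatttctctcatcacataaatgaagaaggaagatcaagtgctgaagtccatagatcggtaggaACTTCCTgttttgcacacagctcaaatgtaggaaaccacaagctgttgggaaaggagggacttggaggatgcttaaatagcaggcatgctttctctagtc
C1qb (chr4:136886201-136886450, minus strand): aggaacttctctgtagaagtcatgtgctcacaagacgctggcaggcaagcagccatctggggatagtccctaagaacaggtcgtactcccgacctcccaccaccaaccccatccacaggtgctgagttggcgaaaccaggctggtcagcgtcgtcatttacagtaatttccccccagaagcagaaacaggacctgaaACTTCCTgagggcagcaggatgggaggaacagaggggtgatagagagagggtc
C1qc (chr4:136892915-136893164, minus strand): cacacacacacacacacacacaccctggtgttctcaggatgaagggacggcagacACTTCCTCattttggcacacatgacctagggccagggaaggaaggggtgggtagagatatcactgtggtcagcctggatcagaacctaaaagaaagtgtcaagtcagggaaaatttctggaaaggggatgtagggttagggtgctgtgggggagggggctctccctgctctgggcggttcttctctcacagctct
Mrc1 (chr2:14229164-14229413, plus strand): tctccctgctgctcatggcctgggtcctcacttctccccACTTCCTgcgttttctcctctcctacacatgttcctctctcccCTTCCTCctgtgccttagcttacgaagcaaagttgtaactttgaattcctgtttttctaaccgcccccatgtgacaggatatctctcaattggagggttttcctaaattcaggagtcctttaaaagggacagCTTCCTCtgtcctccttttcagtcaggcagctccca
Cybb (chrX:9469325-9469574, minus strand): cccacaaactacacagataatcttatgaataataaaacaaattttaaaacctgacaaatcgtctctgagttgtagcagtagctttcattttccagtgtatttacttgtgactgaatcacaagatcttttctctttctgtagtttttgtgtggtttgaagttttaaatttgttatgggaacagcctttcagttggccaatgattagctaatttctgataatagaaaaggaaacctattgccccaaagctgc
Trem2 (chr17:48346151-48346400, plus strand): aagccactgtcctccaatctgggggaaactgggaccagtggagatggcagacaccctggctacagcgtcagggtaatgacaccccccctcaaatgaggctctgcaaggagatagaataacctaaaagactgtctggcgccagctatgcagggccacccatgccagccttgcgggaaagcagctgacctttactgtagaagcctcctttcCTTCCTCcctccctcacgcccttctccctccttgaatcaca
In these sequences the match of Lyz2 lies 94 to 100 bases before the start and that of C1qb 47 to 53 bases before it. In C1qc the 2 motifs overlap, at 189 to 195 and 188 to 194 bases, which appears as a single run of capitals. Mrc1 has an AGGAAGT match at 205 to 211 bases and GAGGAAG matches at 162 to 168 and at 30 to 36 bases. The match of Trem2, to the motif GAGGAAG, lies 35 to 41 bases before the start.

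Genes of secreted proteins were among those with the widest gaps. Lyz2, the lysozyme that breaks bacterial cell walls, had 68.0 on high doxycycline and 64.8 on tumor, against 3932 on control. Wfdc17, a small secreted protein with a whey acidic protein domain that activated macrophages make, had 51.9 and 50.5, against 4057. Saa3, an acute phase serum amyloid made by macrophages, fat cells and fibroblasts outside the liver, had 70.0 and 65.5, against 3769. The 3 genes were bright on control and lay in the lower part of the range elsewhere, between percentiles 51.9 and 72.3 of the olfactory receptor probe sets of the same array. Among all 19938 genes their ranks from the most dimmed were 3, 2 and 4 on high doxycycline. On tumor the ranks of Lyz2, Wfdc17 and Saa3 were 4, 2 and 5, with the complement gene C1qb at rank 3.

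C1qa, C1qb and C1qc, neighbours on chromosome 4, encode the 3 chains that assemble into C1q, the molecule that starts the classical complement pathway on bound antibody. C1qb had 104.5 on high doxycycline and 89.2 on tumor, against 5449 on control, which is 51.7-fold and 60.4-fold dimmer. C1qc had 112.0 and 100.7, against 2599 (23.0-fold and 25.6-fold). C1qa had 187.5 and 168.3, against 3440 (18.3-fold and 20.3-fold). The chains shared the direction and the order of arrays. Of the 3 chains C1qa alone lay above the olfactory receptor 95th percentile on all 3 arrays.

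Uptake receptors did not all behave like the secreted proteins. Mrc1, the mannose receptor of tissue macrophages, had 78.9 on high doxycycline and 74.3 on tumor, against 3175 on control (39.8-fold and 42.2-fold dimmer). Cd163, which clears haemoglobin bound to haptoglobin, had 100.1 and 86.0, against 694.9, and Folr2, the folate receptor of resident macrophages, had 119.6 on both arrays, against 930.3. Thus 3 receptors of resident macrophages were bright on control and at the olfactory receptor level elsewhere. Cd68, a glycoprotein of late endosomes and lysosomes, had 411.8 on high doxycycline and 248.3 on tumor, against 3230 on control. It was dimmer than control by 7.83-fold and 12.96-fold and yet stayed above the array medians of 226.7 and 219.8. Of the class A scavenger receptors, Msr1 had 48.1 and 47.6, against 163.4, and Marco had 117.4 and 110.9, against 140.6. Marco, a receptor of marginal zone and alveolar macrophages, was under the olfactory receptor level on all 3 arrays and differed by 1.20-fold and 1.27-fold. The fungal lectin receptors also split: Clec4n (Dectin-2) had 50.8 and 49.8, against 200.6, and Clec7a (Dectin-1) had 94.8 and 82.97, against 141.5. For Clec7a the array labelled control was below the olfactory receptor level too.

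By the median of each role, the Toll-like receptors and their co-receptor had the smallest differences from control, and they had the only ones among the 39 that ran the other way. Tlr2, which senses bacterial lipoproteins, had 192.6 on high doxycycline and 174.9 on tumor, against 530.4 on control (2.75-fold and 3.02-fold dimmer). Tlr7, an endosomal sensor of single-stranded RNA, had 52.2 and 47.0, against 89.6, with all 3 values under the olfactory receptor level. Tlr4, the receptor for lipopolysaccharide, had 137.1 on high doxycycline and 214.7 on tumor, against 174.9 on control. It is the single member that was brightest on the array labelled tumor. Cd14, which hands lipopolysaccharide to Tlr4, had 914.4 on high doxycycline and 158.2 on tumor, against 650.3 on control. High doxycycline was thus 1.41-fold brighter than control for Cd14, and tumor was 4.09-fold dimmer. Ly96 (MD-2), the protein that binds lipopolysaccharide together with Tlr4, is not one of the 39 and had 1731 and 2041, against 257.7, so that it was brighter on both of these arrays than on control. Its log2 differences from control were 2.74 and 2.98. The parts of this receptor complex therefore had 3 different orders of the arrays.

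Receptors for antibody and the adaptors they signal through were mostly dimmer. Fcer1g, the gamma chain that carries the signalling motif of activating Fc receptors, had 137.8 on high doxycycline and 130.2 on tumor, against 1111 on control (8.01-fold and 8.47-fold). Tyrobp (DAP12), an adaptor of the same kind, had 112.35 and 102.1, against 1653 (14.6-fold and 16.05-fold). Fcgr3, a low-affinity IgG receptor that pairs with Fcer1g, had 112.0 and 111.8, against 1509 (13.4-fold on both). The high-affinity IgG receptor gene Fcgr1 had 132.8 and 114.6, against 252.7, which is 1.90-fold and 2.20-fold dimmer. The difference of Fcgr1 on tumor was under 2-fold with a pseudocount of 64 (log2 -0.83), a common median (-0.95) or quantile normalization (-0.94). The adaptors and Fcgr3 lay above the array median on control alone, and Fcgr1 was close to the median of the array even there. Fcer1g stayed above the olfactory receptor 95th percentile on all 3 arrays, and Tyrobp and Fcgr3 did not. Trem2, a lipid-sensing receptor that signals through Tyrobp, stood apart with 732.6 on high doxycycline and 610.45 on tumor, against 797.1 on control. It lay between percentiles 68.8 and 76.6 of all probe sets on the 3 arrays, while its adaptor lay at percentiles 31.2 and 29.6 on high doxycycline and tumor and at 88.7 on control. The log2 difference of Trem2 between high doxycycline and control was -0.12, and 0.019 after a shift to a common median, so that it has no settled direction.

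The phagocyte oxidase makes superoxide inside the phagosome. Its catalytic subunit gene Cybb had 75.6 on high doxycycline and 65.9 on tumor, against 799.7 on control (10.5-fold and 12.0-fold dimmer). The cytosolic subunit genes were less far apart: Ncf1 had 182.7 and 160.5, against 569.7, and Ncf4 had 119.2 and 101.4, against 285.9. All 3 genes were dimmer than control by at least 2-fold on both arrays, although Ncf4 on high doxycycline was not with a pseudocount of 64 (log2 difference -0.93 in place of -1.26). From the list of other oxidase genes, Cyba, the membrane partner of Cybb, was dimmer too (log2 differences of -4.43 and -4.77), as were the GTPase gene Rac2 (-1.59 and -1.83) and Nox4 (-1.49 and -1.58). The remaining 4 of its 7 measured genes were within 2-fold.

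**Figure D2:**
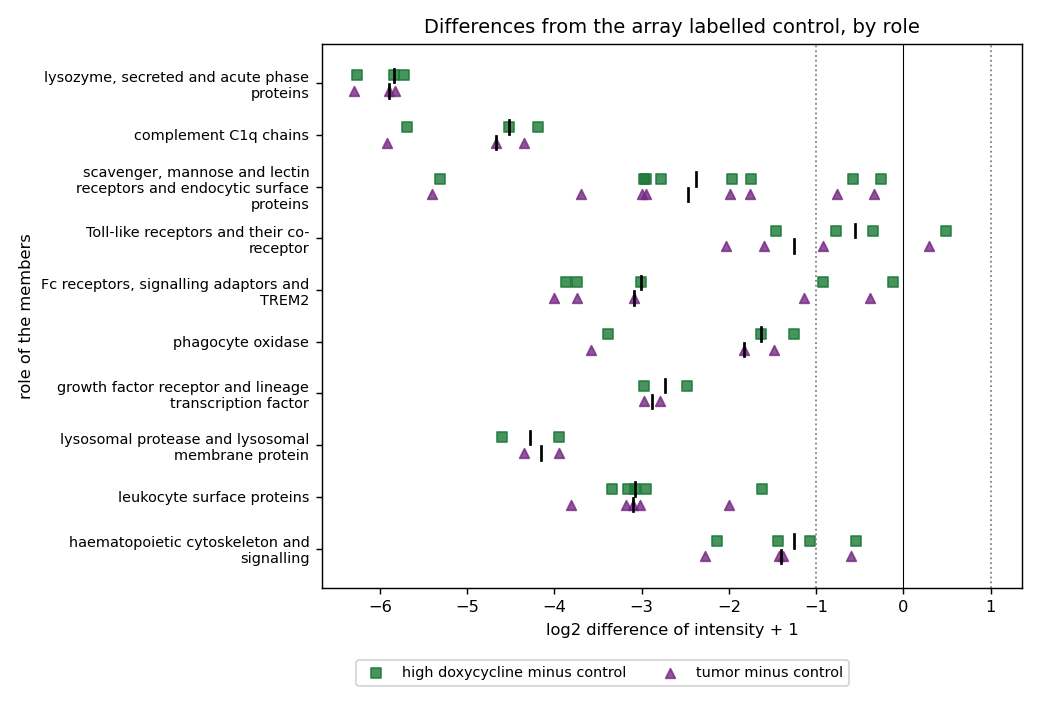
Log2 difference (intensity + 1) of each gene between the array labelled high doxycycline (squares) or tumor (triangles) and the array labelled control, by role, with black ticks at the median of each role and dotted lines at 2-fold. Wfdc17, a secreted protein, is the point furthest to the left on both arrays (-6.26 and -6.30), and the points right of 0 are Cd14 on high doxycycline (0.49) and Tlr4 on tumor (0.29).

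Lysosomal and leukocyte genes completed the picture. Ctss, a protease that processes the invariant chain of MHC class II, had 88.9 on high doxycycline and on tumor, against 1391 on control (15.5-fold). Laptm5, a lysosomal membrane protein of blood cells, had 134.1 and 159.6, against 3275 (24.2-fold and 20.4-fold). Both lay above the array median on control alone. Ptprc, the tyrosine phosphatase found on all white blood cells, had 106.7 and 82.4, against 331.3. The tetraspanin gene Cd53 had 100.03 and 72.2, against 1024, and Cd52, a small glycoprotein anchored in the leukocyte membrane, had 72.1 and 68.5, against 563.0. Ms4a7 and Ms4a6d, membrane proteins of macrophages, had 43.9 and 43.4 on high doxycycline and 41.0 and 45.3 on tumor, against 378.2 and 395.0 on control. Each of these 7 genes was at least 2-fold dimmer than control on both arrays, and none was above the array median on either.

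Among the proteins of the leukocyte cytoskeleton, the actin-bundling protein gene Lcp1 had 116.4 on high doxycycline and 105.9 on tumor, against 516.9 on control (4.41-fold and 4.84-fold dimmer). Vav1, a signalling protein of blood cells, had 102.6 and 104.0, against 280.0. The coronin gene Coro1a had 212.9 and 171.15, against 448.2, and was 2.10-fold dimmer on high doxycycline and 2.61-fold on tumor. On high doxycycline it came under 2-fold with a pseudocount of 64 (log2 -0.89) or a common median (-0.93). Aif1 (IBA1), an actin-binding protein used to stain macrophages and microglia, had 85.0 and 81.4, against 124.2, and was under the olfactory receptor level on all 3 arrays. Aif1 thus gave no bright signal on the array where the other markers did. The 4 genes under that level on all arrays were Aif1, Clec7a, Marco and Tlr7. Another 23 were above it on control alone, beside 2.51% of all genes, 11 on all 3 arrays, and Fcgr1 on high doxycycline and control. The shares of all genes with patterns other than control alone were not counted.

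The comparison of tumor with high doxycycline does not involve the control array, on which the members were chosen. Of the 39, 27 on high doxycycline and 28 on tumor lay at or below the olfactory receptor 95th percentile, where a 2-fold difference can hardly show. Of the 39 genes 1 differed by at least 2-fold, beside 2.05% of all genes, a share like that of the background. Among the 3 members whose brighter array lay above its median it was also 1, beside 3.51% of all genes that passed this filter. That gene was Cd14, which was 5.75-fold dimmer on tumor (158.2) than on high doxycycline (914.4). It ranked 13 from the most dimmed of the 19938 genes in this comparison. Cd68 was 1.66-fold dimmer on tumor than on high doxycycline, and Cd53 1.38-fold. Tlr4 was 1.56-fold brighter on tumor (214.7 against 137.1) and Laptm5 1.19-fold. The middle 95% of all genes lay between -0.65 and 0.58 on the log2 scale, so that Cd14 (-2.52), Cd68 (-0.73) and Tlr4 (0.64) were outside it. In all, 33 members were dimmer on tumor, 4 were brighter and 2 (Ctss and Folr2) had equal values. The shares of all genes in each direction were not counted. The median log2 difference of the 39 was -0.14. The median log2 value of all probe sets was itself lower on tumor (difference -0.044), and for 5 members the sign changed under another scaling of the arrays. Values that are exactly equal on these arrays were held by 34.6% of all probe sets, and the sources used here do not say why.

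**Figure D3:**
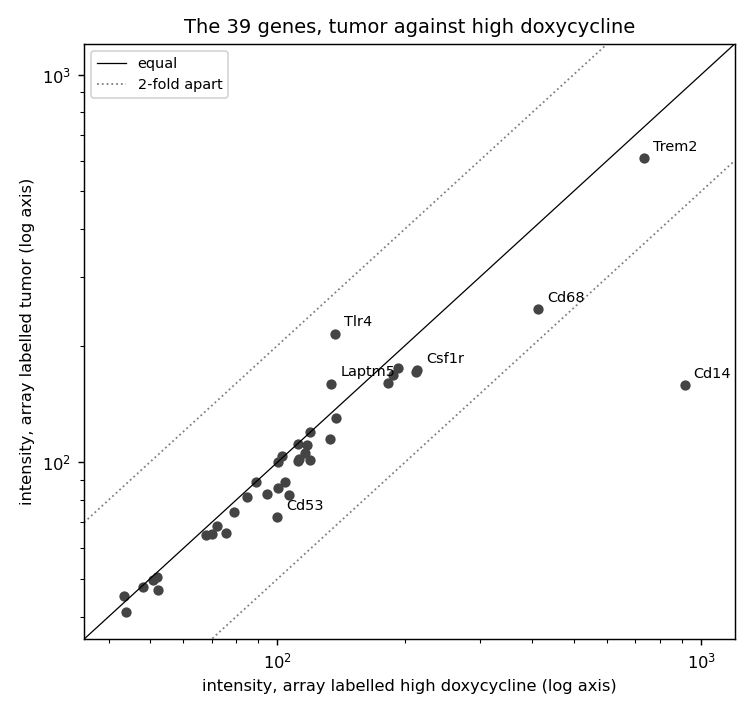
Intensity of the 39 genes on the array labelled tumor (vertical, log axis) against the array labelled high doxycycline (horizontal, log axis), with lines at equality and at 2-fold. Cd14 (158.2 on tumor, 914.4 on high doxycycline) is the point outside the 2-fold lines.

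Other genes listed as expressed in such cells followed the members in part, although the cells behind their signal were not tested. Of 36 further macrophage and monocyte genes, 27 were at least 2-fold dimmer on high doxycycline than on control and 28 on tumor. The shares of all genes, 5.55% and 6.82%, stand beside these counts and those of the lists below. Retnla, a secreted marker of alternatively activated macrophages, had 46.0 and 51.7, against 1254, and Apoe, a lipid carrier that macrophages make in quantity, had 345.6 and 361.7, against 7060. The lectin receptor gene Clec10a had 76.4 and 72.3, against 1263, and Ms4a4a had 45.3 and 43.9, against 866.6. In this list Axl, a receptor for apoptotic cells, was brighter on tumor than on high doxycycline (log2 difference 1.08), and the haem oxygenase gene Hmox1 was dimmer (-1.73), with 773.0 on tumor, 2562 on high doxycycline and 3295 on control.

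The further macrophage genes had median log2 differences of -2.30 on high doxycycline and -2.41 on tumor, the myeloid transcription factors -0.79 and -1.12, and the genes of signalling around the Fc receptor adaptors -0.77 and -0.89. Of 17 myeloid transcription factors, 6 were at least 2-fold dimmer on high doxycycline and 9 on tumor, among them Irf8 (log2 differences -1.49 and -1.50), Cebpa (-1.33 and -1.30), Zeb2 (-1.61 and -1.66) and Batf3 (-1.60 and -2.38). Tfec, a relative of Mitf, had 387.2 on high doxycycline and 118.9 on tumor, against 417.3 on control. Among these signalling genes 6 and 8 of 18 were dimmer, such as Arhgdib (-3.26 and -3.23), Sirpa (-2.96 and -2.95), Inpp5d (-2.52 and -2.66) and Lcp2 (-2.02 and -2.35). Blnk was brighter on both (1.76 and 2.73). Of 15 other Toll-like receptor genes and adaptors 5 were dimmer on each array, led by the lipopolysaccharide-binding protein gene Lbp (-3.92 and -4.03), Unc93b1 (-2.83 and -2.86) and Tlr8 (-2.18 and -2.23) and with Ly86 and Tlr13 after them. Ly96 was brighter on both arrays, and Tlr3 on tumor (1.46). Of 12 complement genes 8 were dimmer on each, including the C1 inhibitor gene Serping1 (-5.36 and -5.17), C4b (-3.90 and -3.65), Cfp (-2.60 and -2.32) and C2 (-2.38 and -2.26). The ligands of Csf1r were within 2-fold on both arrays. Csf1 had 495.9 and 487.2, against 507.1, and Il34 had 171.0 on both, against 254.3. Csf2rb, the shared receptor chain for GM-CSF, was dimmer (-1.94 and -2.34), and so was the G-CSF receptor gene Csf3r on high doxycycline (-1.14, and -0.94 on tumor). Of 12 lysosomal genes that most cells express none was dimmer by at least 2-fold, and Ctsl, Lamp2 and Cd63 were at least 2-fold brighter on both arrays than on control (1.02 to 1.23).

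Some lists of markers of other cells were also dimmer than control in large part, and others held few such genes. Of 14 neutrophil genes 8 were at least 2-fold dimmer than control on each of the other arrays, among them Retnlg (log2 differences -4.45 and -4.47), S100a9 (-3.89 and -4.01), S100a8 (-3.42 and -3.77) and Mmp9 (-3.06 and -3.25). The others, Mpo, Elane, Prtn3, Ltf, Camp and Ly6g, were within 2-fold and lay below the array median even on control. T and NK cell genes showed 2 of 17 dimmer on each array (Thy1, which fibroblasts also express, and Cd4). B and plasma cell genes had 1 of 10 dimmer, Jchain (-1.01 and -1.001), and 1 brighter on high doxycycline, Pax5 (1.25, and 0.91 on tumor). In the mast cell list 2 of 10 were dimmer on high doxycycline (Cpa3 and Hdc) and 3 on tumor, with Tpsb2 (-1.10), and in the dendritic cell list 3 of 10 (Cd209a, Batf3 and Irf4) and, with Cd83 (-1.02), 4 of 10. Irf4 was also dimmer on tumor (197.6) than on high doxycycline (651.2). Endothelial genes were dimmer in 12 of 15 cases on each array, matrix and fibroblast genes in 12 and 11 of 13, and skeletal muscle genes in 12 and 13 of 14. Platelet and red cell genes were dimmer in 4 of 8 cases on each array, namely Pf4 (-3.58 and -3.75), Ppbp, Alas2 and Slc4a1. None of 10 pigment cell and Schwann cell genes was dimmer by 2-fold, and Ngfr, a neurotrophin receptor gene, was brighter on tumor (4450) than on high doxycycline (956.9) and control (668.9). The median log2 level of the endothelial list was 7.21 on high doxycycline, 6.98 on tumor and 9.14 on control, and that of the skeletal muscle list 7.55, 7.35 and 11.13. The part of these cells in the values of the 39 genes was not tested.

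**Figure D4:**
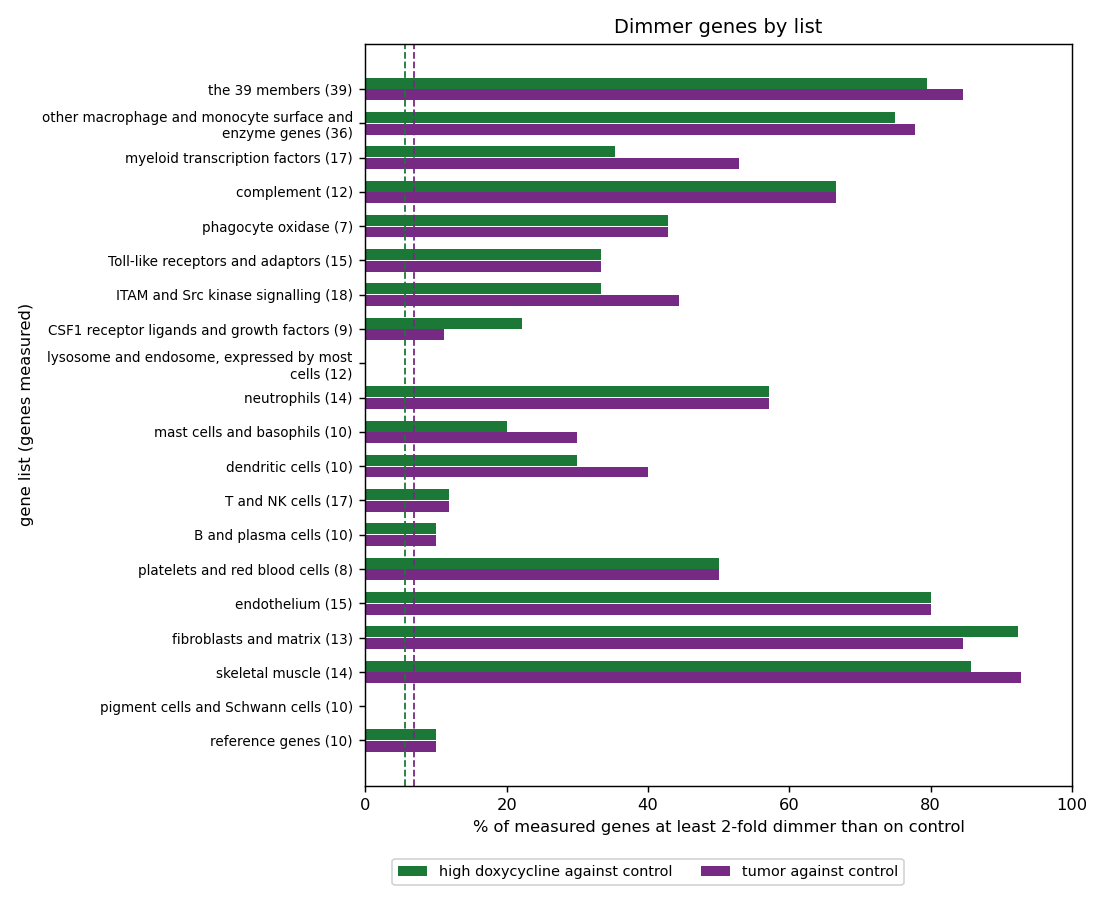
Share of the measured genes of each list (numbers in brackets) whose intensity on high doxycycline or tumor was at least 2-fold below control, with dashed lines at the shares of all genes (5.55% and 6.82%). The 39 genes and the further macrophage genes reach shares near those of the endothelial, matrix and muscle lists, and the T cell and B cell lists lie near the dashed lines.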

How the data were processed

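Biotin-labelled total RNA was hybridised to MoGene-1_0-st-v1 arrays, per the labels. The deposited values are linear intensities, 1 per probe set for 28856 probe sets on 3 arrays. The sources used here do not give the authors' background correction, probe summary or normalization. Titles set the groups.

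Probe sets were named through the platform annotation, which gives 21789 of them 1 symbol, 1621 several and 5446 none, and those with 1 symbol cover 19938 genes. Of these probe sets 21698 matched a RefSeq gene table (GRCm38.p6) by Entrez number. Of several probe sets of a gene (999 genes) the brightest by mean was used. Folds are differences of log2(intensity + 1), which understates changes of dim genes, and counts take at least 2-fold with no filter. With 1 array per group there is no replicate, no test and no p-value. The number of arrays limits the precision. Calculations used Python 3.11.15, pandas 2.3.3 and numpy 2.4.6 and were tested on simulated data.

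The members and lists were chosen with earlier results of these data known. All 39 members are named, and of the other blood cell lists up to 4 genes at least 2-fold from control on both arrays, genes 2-fold apart between tumor and high doxycycline, and the rest where a count was 5 or fewer. The neutrophil genes within 2-fold are named as well. Csf1 and Il34 were chosen after their values were seen, and so were the promoter motifs and the promoters shown. The 19 other lists had 257 of 280 entries measured. One of them holds reference genes, and its 10 measured genes had a median log2 difference from control of 0.61 on both other arrays. Of these, Hprt and Tfrc were at least 2-fold brighter than control on both arrays, and Polr2a was at least 2-fold dimmer. The alternatives were pseudocounts of 16 and 64, a common median, quantile normalization, a brightness filter, other rules for several probe sets, and other levels for bright probe sets.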

Additional observations from a re-analysis of the deposited data

How the results depend on the processing

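Changing the pseudocount, the scaling between arrays, the brightness filter or the rule for several probe sets reversed no difference of at least 2-fold among the 39 genes. Most of these changes could not have done so, and the result is no sign of stability. A pseudocount keeps the sign of a difference, the filter only drops genes, and each member has a single probe set. The shift to a common median is far smaller than 2-fold. The count at least 2-fold dimmer than control stayed between 29 and 31 of 39 on high doxycycline and between 32 and 33 on tumor under the alternatives that keep all members. With the brightness filter it was 29 and 31 of the 32 members that passed, beside 8.45% of 11933 and 10.2% of 12010 genes. Most of these members pass through the array labelled control alone, so their high share follows in part from how they were chosen. Coro1a and Ncf4 on high doxycycline and Fcgr1 on tumor came under 2-fold in some alternative. With a pseudocount of 64 the median log2 differences were -2.19 for high doxycycline and -2.24 for tumor, because a larger pseudocount shrinks differences of dim genes by construction. Where the brighter array had to lie above its median, 3 members were left for tumor against high doxycycline (Trem2, Cd68 and Cd14), with a median of -0.73. The number of members counted as bright depends on the level chosen. Above the 99th percentile of olfactory receptors there were 5 on high doxycycline, 3 on tumor and 32 on control, beside 57.9%, 57.9% and 56.1% of all genes, and above the array median 3, 2 and 32. Among differences of single genes, Trem2 changed sign between high doxycycline and control, and Clec4n, Fcgr3, Msr1, Spi1 and Wfdc17, all with small differences, did so between tumor and high doxycycline. No paired analysis was possible because each group has 1 array. Of the 39 genes 27 on high doxycycline and 28 on tumor lay at or below the olfactory receptor 95th percentile, where the size of a fold is limited by background signal.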
